A study of Mus musculus with 9 samples.

Results

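The nuclear receptor superfamily was followed here through a list of 46 genes, among them the receptors for steroids, thyroid hormone, retinoids, vitamin D, oxysterols and fatty acids and most of the orphan receptors. The genes were taken by symbol from the count table of whole mouse ovaries, in which each of the 46 symbols had 1 row among 46078 genes. The RNA-seq set held 9 libraries, each from the ovary of 1 mouse, with 5 WT and 4 ERβKO mice of the C57BL/6J strain. In ERβKO mice exon 3 of Esr2, the gene of estrogen receptor β, is deleted in the germline through a floxed allele and a Rosa26-Cre deleter, so that the allele is lost in every tissue, and the WT controls were offspring without Cre. The labels give the treatment as untreated for all 9 ovaries, although the protocol text attached to them also describes a diet and ligand experiment, and a diet per sample is not given in the sources used here. The mice of all experiments of the study were 4 to 20 weeks old, an age per ovary is not given in the sources used here, and no estrous staging was done.

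Nuclear receptors are transcription factors that most often bind DNA through a domain with a pair of zinc fingers and bind a small lipid-soluble ligand through a second domain, on which coactivators or corepressors then assemble. In the ovary, estrogen receptor β is known from granulosa cells, estrogen receptor α from theca and stromal cells, the progesterone receptor from granulosa cells about to ovulate, and the NR5A receptors from steroid-making cells, where they act on the genes of steroid synthesis. Orphan receptors are those for which no natural ligand was known when they were named, and the NR0B receptors lack the DNA binding domain.

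A stretch of 24 bases that encodes the DNA-reading part of the first zinc finger is shown because the deleted exon of Esr2 holds it and because it ties the list together in sequence. The search asked for 8 codons in a row in the reading frame of the longest complete coding transcript of each gene (GENCODE M21, GRCm38, coding strand only). These are a cysteine codon, 2 codons of any kind, a cysteine codon, a lysine codon, 1 codon of any kind and a pair of phenylalanine codons. Such a stretch was found in 42 of the 46 listed genes and in 46 of 21816 protein-coding genes (0.211%), those 42 included. Nr0b1, Nr0b2, Nr2e1 and Nr2e3 had no match, which says only that these codons were not there in this order. Capitals mark the bases that differ from Esr2. The sequences, 5′ to 3′, are those of Esr2 and the receptors that the results turn on.
Esr2: tgtgaaggatgtaaggcctttttt
Esr1: tgCgaaggCtgCaaggcTttCttt
Esrra: tgtgaGgCCtgCaaAgccttCttC
Pgr: tgtgGGAgCtgCaaggTcttCttt
Nr5a1: tgCgaGAgCtgCaaggGcttCttC
Nr5a2: tgCgaaAgCtgCaaggGTtttttt
Thra: tgtgaGggCtgCaaggGcttCttt
Rora: tgtgaaggCtgCaaggGctttttC
The Esr2 stretch lies at chr12:76165465-76165488 on the minus strand, inside an exon of 173 bp at chr12:76165449-76165621. That exon is number 3 in 4 of the 5 annotated coding transcripts of Esr2 and number 2 in the other. Its length is not a multiple of 3, and it makes up between 5.15% and 5.77% of the length of these transcripts. For Esr1 the stretch lies at chr10:4746768-4746791 (plus strand, exon 3), for Pgr at chr9:8903708-8903731 (plus strand, exon 2) and for Esrra at chr19:6920079-6920102 (minus strand, exon 2). For Nr5a1, Nr5a2, Thra and Rora the stretch runs across an exon boundary. Over the 41 other genes with a match, the stretch differed from that of Esr2 at 3 bases in Ppara up to 10 bases in Nr3c2 and Nr2f1. Esr1 differed at 5 bases, Thra at 5, Rora at 4, Nr5a2 at 6, Esrra and Pgr at 7 and Nr5a1 at 8.

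The deposited counts summed to between 12353740 and 16519975 fragments per WT library and between 13088728 and 18717510 per ERβKO library. One WT ovary stood apart. In a principal component analysis of log2 CPM, replicate 2 of the WT group had a first score of 9.43 (35.9% of the variance), the other WT ovaries between -43.8 and -15.6 and the ERβKO ovaries between 19.4 and 35.3. Calls that differ without this ovary are therefore given both ways. None of the granulosa, theca, luteal, stromal and oocyte markers used here was at 0 in all libraries, and markers of tissue next to the ovary were present too. The 6 oviduct epithelium markers summed to 3328 to 6199 CPM in WT and 3904 to 4949 CPM in ERβKO ovaries. For the 8 adipocyte markers the sums were 350 to 1192 and 308 to 1773 CPM. Within the WT group this sum did not follow the markers Fabp4 and Adipoq. They were at 50.8 and 20.65 FPKM in WT replicate 5 (sum 1192 CPM) and at 122 and 33.7 FPKM in WT replicate 3 (491 CPM). The 5 adrenal cortex markers summed to 294 to 1301 and 105.9 to 348 CPM. Cyp11b2 had no count in any library, while Star, which luteal cells also express, is among the other 4. The sum followed Star, from 324 FPKM in WT replicate 5 (1301 CPM) to 26.7 FPKM in ERβKO replicate 4 (105.9 CPM). Adrenal tissue cannot be read from it. In RNA of a whole organ, fewer cells of a type and less RNA per cell cannot be told apart.

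Levels across genes were compared on the FPKM scale, which is per kilobase of gene. The transcripts of 13 of the 46 receptors had a mean above 10 FPKM in WT ovaries, those of 21 lay above 1 and up to 10 FPKM, those of 7 above 0.1 and up to 1 FPKM, and 5 were at or under 0.1 FPKM. In ERβKO ovaries, too, 13 were above 10 FPKM and 34 above 1 FPKM. The 10 most abundant held 69.7% of the summed mean FPKM of the list in WT ovaries. Nr5a2, known as LRH-1, led at 64.5 ± 11.7 FPKM (SD, n = 5 WT ovaries, as for the other levels in this paragraph). Nr5a1, known as SF-1, followed at 39.8 ± 8.39 FPKM. Next came Nr1d1 and Thra at 30.9 ± 8.45 and 30.6 ± 2.87 FPKM, the first a heme-binding repressor of the circadian clock and the second the α receptor of thyroid hormone. Nr2f2, an orphan receptor of mesenchymal cells, was at 28.4 ± 3.58 FPKM, and Nr1d2, the paralog of Nr1d1, at 26.7 ± 2.95 FPKM (26.65 before rounding). Nr1h2, an oxysterol receptor, was at 22.1 ± 1.90 FPKM and Esr1 at 19.9 ± 6.87 FPKM. Esr2 and the immediate early gene Nr4a1 closed the group at 16.7 ± 4.46 and 16.0 ± 7.12 FPKM.

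This order was loose among neighbors. For none of the 45 pairs of neighbors in the order did the WT ranges lie apart, and only 4 pairs were in the same order in all 5 WT ovaries, namely Nr5a2 above Nr5a1, Nr1d2 above Nr1h2, Rxra above Nr2c1 and Nr2f6 above Ppard. The same 10 genes were the most abundant by deposited TPM and in ERβKO ovaries. Within the WT group the spread differed widely between receptors above 1 FPKM. Nr3c1, the glucocorticoid receptor, Ppard and Rxrb varied least, with a coefficient of variation of 3.64%, 3.76% and 4.49%. Pgr, Nr0b1, Nr1h4 and Nr4a1 varied most, at 97.4%, 47.4%, 46.4% and 44.6%. At the low end, Rxrg, Nr1i3, Rorb, Nr2e3 and Hnf4g had at most 14 counts in a library and were not tested. Nr1i3, a xenobiotic receptor of liver, was listed at 0 FPKM in all 5 WT ovaries.

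**Figure D1:**
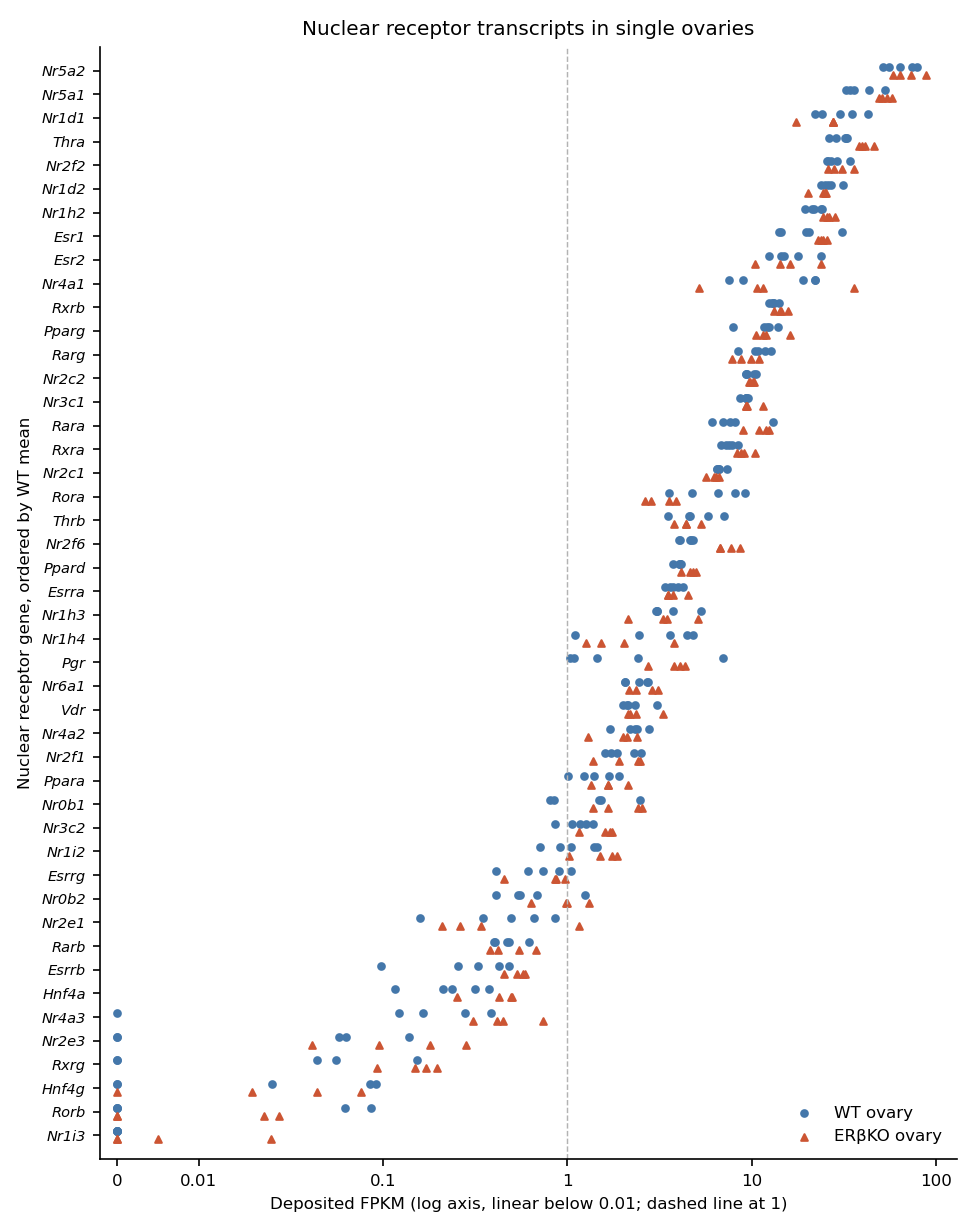
Deposited FPKM of the 46 nuclear receptor genes (log axis, linear below 0.01), ordered by the WT mean, with 1 circle per WT ovary and 1 triangle per ERβKO ovary. Nr5a2 and Nr5a1 lie at the top, the dashed line marks 1 FPKM, above which 34 genes have their WT mean, and the 5 genes at the bottom were not tested.

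The comparison of ERβKO with WT ovaries asked which receptor transcripts differed once ERβ was lost. Of the 41 receptors tested, 1 met the criteria for DEGs with edgeR's quasi-likelihood test, against 1.72% of the 16722 genes tested, and this was Thra, which rose. These ask for a Benjamini-Hochberg adjusted p below 0.05, a log2 fold change beyond 0.4 in either direction and, in 1 genotype or both, a mean above 1 FPKM. Genes called as higher made up 0.915% of all genes and genes called as lower 0.801%. By the adjusted p alone 1 receptor passed, against 2.03% of all genes. With DESeq2, 2 receptors met the criteria, Thra and Rora, against a background of 4.60%. Without WT replicate 2 edgeR called 4, Thra, Rora, Rara and Pgr, against 5.56%. In the 7 libraries with a sample number below 200 it called none, against 0.303%. That fit leaves out WT replicates 4 and 5 and keeps WT replicate 2. All ERβKO libraries were numbered below 200, so the sample number is not independent of genotype. An unadjusted p under 0.05 was reached by 9 of the 41 receptors, 6 higher and 3 lower in ERβKO ovaries, which is 22.0% against 19.8% of all genes. The higher ones were Thra, Nr5a1, Rara, Rxra, Nr1h2 and Nr3c2, and the lower ones Rora, Nr2c1 and Rarg. The log2 fold change was above 0 for 27 and below 0 for 14 receptors, with a median of 0.076 against -0.0009 for all genes tested. It ran from -1.13 for Rora to 0.70 for Nr4a3, a receptor with a WT mean of 0.19 FPKM.

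The precision differed between receptors. For 10 of the 41 the 95% interval of the log2 fold change lay wholly between -0.4 and 0.4, namely for Nr2f2, Nr1h2, Rxrb, Nr2c2, Nr3c1, Nr2c1, Nr2f6, Ppard, Esrra and Nr6a1. For Nr2f6 this holds for the counts only, as the difference was 0.63 on the log2(FPKM + 1) scale. For the other 31 a change of that size in at least 1 direction lay within the interval. The 5 WT and the 4 ERβKO values did not overlap on the CPM scale for 3 receptors, Thra, Nr1h2 and Nr2c1, against 7.96% of all genes. On the FPKM scale this held for 4 receptors, Thra, Nr1h2, Nr2f6 and Ppard, against 7.61%.

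**Figure D2:**
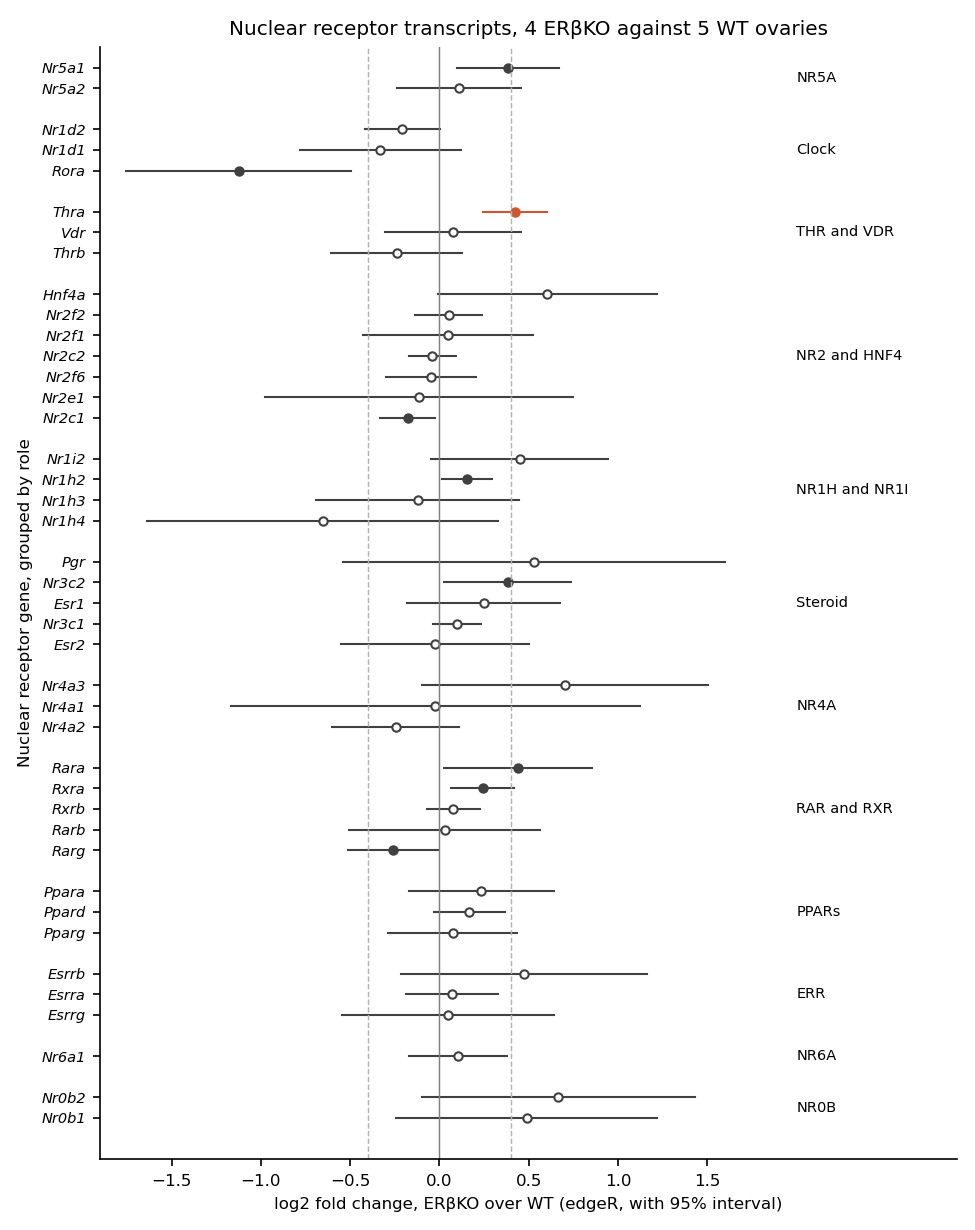
Log2 fold change of the 41 tested nuclear receptor genes, ERβKO over WT, with the 95% interval from edgeR (bars), grouped by role. Filled symbols have an unadjusted p under 0.05, the colored symbol is Thra, the gene called by edgeR, and dashed lines mark log2 fold changes of -0.4 and 0.4.

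Among the receptors of thyroid hormone and vitamin D, the transcript of Thra was higher in each ERβKO ovary than in each WT ovary. WT replicates 1 to 5 held 32.5, 28.8, 32.2, 33.0 and 26.4 FPKM, against 39.9, 41.3, 38.3 and 46.0 FPKM in ERβKO replicates 1 to 4. The lowest ERβKO ovary lay above the highest WT ovary, and no single ovary stood apart within its group. Thra averaged 30.6 ± 2.87 in WT against 41.4 ± 3.29 FPKM in ERβKO ovaries (SD, n = 5 WT and 4 ERβKO), a fold of 1.34 on the count scale. On the log2 scale the fold change was 0.42 (standard error 0.081, 95% interval 0.24 to 0.60), with a Benjamini-Hochberg adjusted p of 0.0317 in edgeR. DESeq2 gave an adjusted p of 0.000471, and a two-sided exact permutation test of the log2 CPM over all splits of the ovaries into 5 and 4 gave p = 0.0159, the smallest it allows. The call lay close to the threshold. With 1 ovary left out in turn the log2 fold change stayed between 0.38 and 0.46, while the adjusted p passed 0.05 without WT replicate 1, WT replicate 5 or ERβKO replicates 2, 3 or 4, reaching 0.0959 in edgeR's test.

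Thra (ENSMUSG00000058756, chromosome 11 of GRCm38 from 98740638 to 98769006, plus strand) shares the end of its last exon with Nr1d1, which lies on the minus strand from 98767932 to 98775333. The shared stretch is 263 bp, 5.70% of the exon length of Thra and 8.55% of that of Nr1d1. Without strand in the counting, reads from it cannot be assigned to one gene. Nr1d1 itself was not higher in ERβKO ovaries, with a log2 fold change of -0.33. Thrb, the β receptor of thyroid hormone, was measured at 5.10 ± 1.35 in WT against 4.46 ± 0.618 FPKM in ERβKO ovaries (SD, n = 5 WT and 4 ERβKO), and Vdr, the vitamin D receptor, at 2.33 ± 0.436 and 2.50 ± 0.545 FPKM. Their log2 fold changes of -0.24 (95% interval -0.61 to 0.13) and 0.08 (-0.31 to 0.46) did not pass the test. Of the 11 thyroid hormone and vitamin D target genes listed, 10 were tested and none met the criteria with edgeR, with 8 log2 fold changes above and 2 below 0 and a median of 0.16.

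The clock receptors hold the repressors Nr1d1 and Nr1d2 and the activators Rora and Rorb, which act on the same response elements. All 3 that were tested had a log2 fold change below 0, and none was a DEG with edgeR. Rora had the most negative value of the list. WT replicates 1 to 5 held 8.11, 3.57, 4.76, 6.56 and 9.20 FPKM of it, against 3.89, 2.83, 2.63 and 3.57 FPKM in ERβKO replicates 1 to 4. WT replicate 2 lay within the range of the ERβKO ovaries, and the other 4 WT ovaries lay above all of them. For Rora the log2 fold change came to -1.13 (standard error 0.28, 95% interval -1.76 to -0.50), with a Benjamini-Hochberg adjusted p of 0.0691 in edgeR and 0.00187 with DESeq2. In the two-sided exact permutation test p was 0.0476. Without WT replicate 2 the log2 fold change was -1.30 and the adjusted p in edgeR's test 0.00972. Over all alternatives the adjusted p of Rora ran from 0.00187 to 0.246.

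The 10 luteal markers summed to 17710, 9067, 11040, 12729 and 20433 CPM in WT replicates 1 to 5 and to 7246, 7412, 11647 and 8150 CPM in ERβKO replicates 1 to 4, with the lowest WT sum in replicate 2 as for Rora. Of the 10, 9 had a log2 fold change below 0, with a median of -0.86, and none met the criteria for DEGs with edgeR. Some of these markers are also listed below as NR5A target genes. Of those, DESeq2 called Star and Cyp11a1 as lower. Without WT replicate 2 edgeR called Star, Cyp11a1 and Hsd3b1 as lower. Lhcgr, Scarb1 and Sfrp4 were called in neither. ERβKO replicate 3, with the lowest Rora of all 9 ovaries at 2.63 FPKM, had the highest luteal sum of the ERβKO group, above WT replicates 2 and 3. The part of luteal cells in the level of Rora was not tested.

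Nr1d1 was measured at 30.2, 22.1, 24.1, 35.2 and 42.9 FPKM in WT and 27.8, 27.8, 17.5 and 27.5 FPKM in ERβKO ovaries. ERβKO replicate 3 was the lowest of all 9, and the other 3 ERβKO ovaries were within the WT range. For Nr1d2 the values were 23.8, 25.1, 26.0, 27.0 and 31.5 FPKM in WT and 24.5, 25.2, 20.2 and 24.9 FPKM in ERβKO ovaries, again with ERβKO replicate 3 lowest. Their log2 fold changes were -0.33 (95% interval -0.78 to 0.12) and -0.21 (-0.42 to 0.0039), with Benjamini-Hochberg adjusted p-values of 0.395 and 0.261 in edgeR. Of the 15 other clock genes listed, all tested, none met the criteria with edgeR or DESeq2. Pathway genes that edgeR did not call are named here and below after their values were seen. At an unadjusted p under 0.05, 3 were higher, the repressor gene Cry1 together with Hlf and Bhlhe41, and none was lower, against 19.8% of all genes in either direction. The median log2 fold change was -0.01. The hour at which the ovaries were collected is not given in the sources used here.

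Of the steroid receptors, the deleted gene was looked at first. Esr2 (ENSMUSG00000021055) spans bases 76120419 to 76177259 of chromosome 12 (GRCm38) and was counted over all its exons, most of which remain in the knockout allele. The log2 fold change of its count was -0.02 (standard error 0.24, 95% interval -0.55 to 0.50), with a Benjamini-Hochberg adjusted p of 0.966 in edgeR. The deleted exon holds at most 5.77% of a transcript, while the coefficient of variation of the Esr2 level was 26.7% in WT and 34.4% in ERβKO ovaries. The count over the whole gene is therefore no check of the deletion.

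Esr1 encodes estrogen receptor α. Its transcript was at 14.0, 31.0, 19.7, 20.4 and 14.4 FPKM in WT and at 24.5, 25.5, 23.8 and 22.9 FPKM in ERβKO ovaries. The ERβKO values were close together, at a coefficient of variation of 4.50% against 34.5% in WT, and lay above 4 WT ovaries and below WT replicate 2. Its log2 fold change was 0.25 (95% interval -0.18 to 0.68), with a Benjamini-Hochberg adjusted p of 0.512 in edgeR. Without WT replicate 2 it was 0.45 with an adjusted p of 0.0514.

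Pgr, the progesterone receptor, showed the same arrangement. Its values were 1.08, 7.02, 1.03, 1.44 and 2.42 FPKM in WT and 2.73, 3.81, 4.36 and 4.10 FPKM in ERβKO ovaries. WT replicate 2 was the highest of all 9, while the other 4 WT ovaries lay below every ERβKO ovary. The log2 fold change of 0.53 (95% interval -0.54 to 1.60) had an edgeR adjusted p of 0.586, and DESeq2 gave none, as it set the gene aside for a count far from the others. Without WT replicate 2 the log2 fold change was 1.30 and the adjusted p 0.0107 in edgeR's test with Benjamini-Hochberg adjustment.

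Nr3c1 ranged from 8.68 to 9.59 FPKM in WT (median 9.34) and from 9.31 to 11.5 FPKM in ERβKO ovaries (median 9.38), of which only ERβKO replicate 1 was above the WT range. On the CPM scale ERβKO replicates 1, 3 and 4, at 93.1, 82.8 and 82.6, were above the highest WT ovary, at 82.2. ERβKO replicate 2, at 78.35 CPM, was within the WT range. Nr3c1 had a log2 fold change of 0.10 (95% interval -0.034 to 0.23). Nr3c2, the mineralocorticoid receptor, was low, at 1.15 ± 0.203 in WT against 1.55 ± 0.270 FPKM in ERβKO ovaries (SD, n = 5 WT and 4 ERβKO). It had a log2 fold change of 0.38 (95% interval 0.028 to 0.74) and a Benjamini-Hochberg adjusted p of 0.224 in edgeR, with an unadjusted p of 0.0371.

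**Figure D3:**
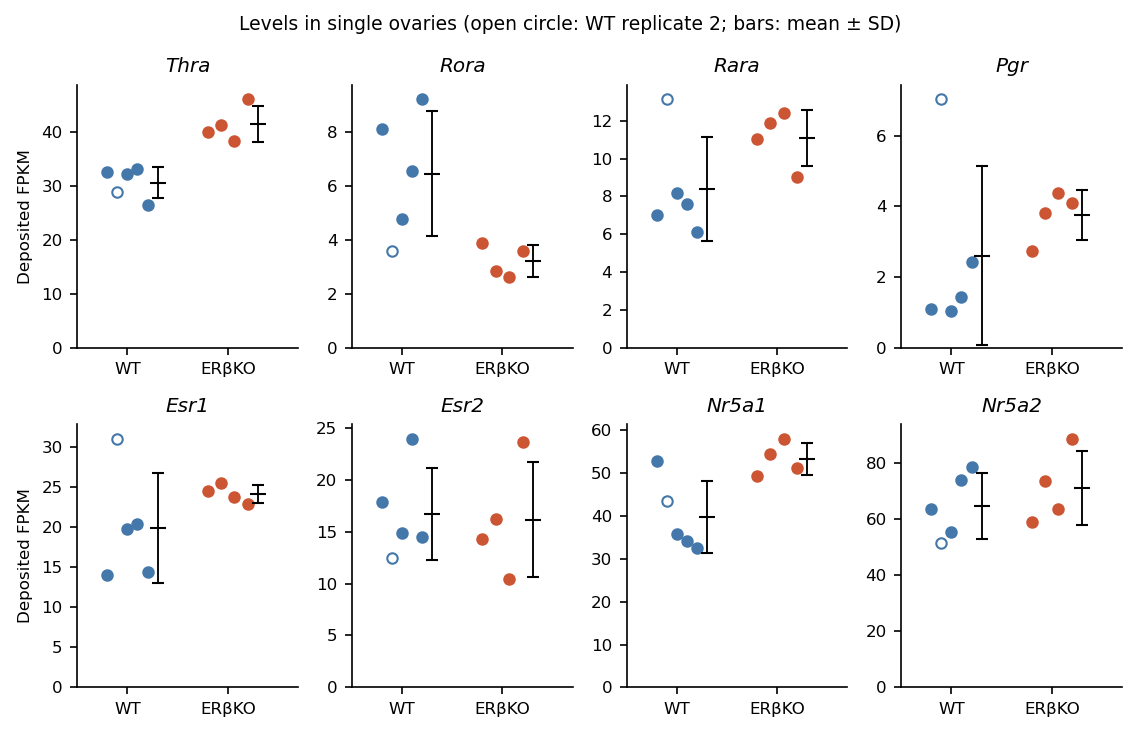
Deposited FPKM of 8 receptors in each of the 5 WT and 4 ERβKO ovaries, with the mean ± SD beside each group and WT replicate 2 as an open circle. The groups lie apart for Thra, from 26.4 to 33.0 and from 38.3 to 46.0 FPKM. WT replicate 2 is the highest WT ovary for Rara, Pgr and Esr1 and the lowest for Rora, Esr2 and Nr5a2.

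The listed target genes of these receptors were counted beside them. Of 12 glucocorticoid and progesterone receptor target genes, 2 met the criteria for DEGs with edgeR and both fell, Fkbp5 and Sgk1. DESeq2 called 4, these and Zbtb16 and Ptger3, both with log2 fold changes above 0. The median log2 fold change of the 12 was 0.04, with 7 above and 5 below 0. Fkbp5, a chaperone partner of steroid receptors, was at 109.8 ± 43.4 in WT against 35.95 ± 4.43 FPKM in ERβKO ovaries (SD, n = 5 WT and 4 ERβKO), which is -1.68 ± 0.29 (standard error) on the log2 scale, with an edgeR adjusted p of 0.0219. Sgk1, a kinase induced by glucocorticoids, was at 104 ± 54.7 and 25.1 ± 8.51 FPKM (SD, n = 5 WT and 4 ERβKO), which is -2.06 ± 0.40 on that scale, with an edgeR adjusted p of 0.0343. For both genes the 5 WT values lay above the 4 ERβKO values. In WT replicates 1 to 5 Fkbp5 was at 130, 51.9, 87.1, 113 and 167 FPKM, in the same order as the luteal marker sums given above. Sgk1 was at 122, 58.5, 50.1, 103 and 185.5 FPKM. In ERβKO replicate 3, with a luteal sum above those of WT replicates 2 and 3, they were at 40.6 and 37.3 FPKM. The part of luteal cells in these levels was not tested. In edgeR without WT replicate 2, 3 of the 12 were called, with Dusp1 as the third. Of 11 estrogen receptor target genes, a list that holds Pgr, 10 were tested and none was called by edgeR. At an unadjusted p under 0.05, 1 was higher, Greb1, and 1 lower, Cited2, against 19.8% of all genes in either direction. Greb1, a cofactor of estrogen receptor α, was the 1 gene DESeq2 called, at 68.5 ± 22.3 in WT against 131 ± 24.02 FPKM in ERβKO ovaries (SD, n = 5 WT and 4 ERβKO), with an adjusted p of 0.00492 there and 0.0741 in edgeR. Without WT replicate 2 edgeR called 2, Pgr and Greb1, the latter with a log2 fold change of 1.00 and an adjusted p of 0.0492. The median log2 fold change of the list was 0.20.

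Both NR5A receptors were abundant. Nr5a1, which in the gonads and adrenals drives the genes of steroid synthesis, was at 52.8, 43.6, 35.8, 34.2 and 32.6 FPKM in WT and at 49.4, 54.3, 57.9 and 51.2 FPKM in ERβKO ovaries. WT replicate 1 lay within the range of the ERβKO ovaries and the other 4 WT ovaries below it. At 0.39 ± 0.13 on the log2 scale (standard error, 95% interval 0.10 to 0.67), Nr5a1 had a Benjamini-Hochberg adjusted p of 0.139 in edgeR and 0.0816 with DESeq2, and a two-sided exact permutation p of 0.0635. Nr5a2, of granulosa and luteal cells, was at 63.5, 51.3, 55.3, 73.8 and 78.6 FPKM in WT and at 58.8, 73.4, 63.6 and 88.4 FPKM in ERβKO ovaries, with groups that overlapped over most of their range. Its log2 fold change was 0.11 (95% interval -0.24 to 0.46) with an edgeR adjusted p of 0.742. The 10 granulosa markers all had log2 fold changes above 0, with a median of 0.56 and 1 call, Hsd17b1, an enzyme of estradiol synthesis. They summed to 2368 to 3081 CPM in WT and 3161 to 4375 CPM in ERβKO ovaries, which do not overlap. Their part in the level of Nr5a1 was not tested.

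Of 14 NR5A target genes, all tested, 1 met the criteria with edgeR and fell. DESeq2 called 5, the lower ones Star, Cyp11a1, Fdxr and Runx2 and the higher one Inha. The gene called by edgeR was Runx2, a transcription factor of luteinizing granulosa cells, which averaged 28.0 ± 19.2 in WT against 2.32 ± 0.581 FPKM in ERβKO ovaries (SD, n = 5 WT and 4 ERβKO). The log2 fold change of Runx2 was -3.57 ± 0.60 (standard error), with a Benjamini-Hochberg adjusted p of 0.0185 in edgeR. In edgeR 5 were called without WT replicate 2, all lower, namely Star, Cyp11a1, Hsd3b1, Fdxr and Runx2. The median of the list with all ovaries was -0.58, with 5 log2 fold changes above and 9 below 0. The list shares Star, Cyp11a1, Hsd3b1, Lhcgr, Scarb1 and Sfrp4 with the luteal markers, whose summed level is given above. It also shares Inha, Amh and Cyp19a1 with the granulosa markers and Cyp17a1 with the theca markers, and Nr0b2 is itself a receptor of the list followed here. Nr0b1, known as DAX-1, and Nr0b2, known as SHP, which repress NR5A receptors, were low, at 1.43 ± 0.677 and 0.687 ± 0.328 FPKM in WT, against 2.00 ± 0.566 and 0.978 ± 0.276 FPKM in ERβKO ovaries (SD, n = 5 WT and 4 ERβKO). Their log2 fold changes were 0.49 (95% interval -0.24 to 1.22) and 0.67 (-0.10 to 1.43).

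Among the retinoid receptors, Rara was at 7.03, 13.1, 8.17, 7.59 and 6.09 FPKM in WT and at 11.0, 11.9, 12.4 and 9.02 FPKM in ERβKO ovaries. WT replicate 2 was the highest of all 9 and the other 4 WT ovaries lay below every ERβKO ovary. For Rara the log2 fold change came to 0.44 (standard error 0.19, 95% interval 0.023 to 0.85), with a Benjamini-Hochberg adjusted p of 0.232 in edgeR. Without WT replicate 2 it was 0.64, and the adjusted p was 0.0164. Rara (ENSMUSG00000037992) lies on chromosome 11 of GRCm38 from 98927818 to 98974942, on the same strand as Thra and downstream of it.

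Rxra, a shared partner of the receptors that bind DNA as heterodimers, was at 6.78 to 8.48 FPKM in WT (median 7.50) and 8.37 to 10.4 FPKM in ERβKO ovaries (median 8.91). Its log2 fold change was 0.24 (95% interval 0.067 to 0.42), with an unadjusted p of 0.0115 and an edgeR adjusted p of 0.133, and a two-sided exact permutation p of 0.0317. Rarg went the other way, at 10.9 ± 1.62 FPKM in WT and 9.37 ± 1.34 FPKM in the ERβKO group (SD, n = 5 and 4 ovaries), with a log2 fold change of -0.26 (95% interval -0.51 to -0.0087) and an edgeR adjusted p of 0.239. Rxrb had a log2 fold change of 0.08 (95% interval -0.071 to 0.23) and Rarb, at 0.475 FPKM in WT, one of 0.03 (-0.50 to 0.56). Annotated exons of Top2b on the other strand cover 34.1% of the exon length of Rarb.

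Of 15 retinoid genes, which supply the ligand or are known targets, 1 met the criteria with edgeR, and DESeq2 called 4, Aldh1a1, Rbp4 and Lrat as higher and Stra6 as lower. Aldh1a1, an enzyme that makes retinoic acid and is also among the theca markers used here, rose from 521 ± 85.7 in WT to 1092 ± 233 FPKM in ERβKO ovaries (SD, n = 5 WT and 4 ERβKO). This gave a log2 fold change of 1.05 (standard error 0.16) and a Benjamini-Hochberg adjusted p of 0.014 in edgeR. With WT replicate 2 left out edgeR called 4, Aldh1a1, Cyp26a1 and Lrat as higher and Stra6 as lower. Of the list, 9 log2 fold changes lay above and 6 below 0, with a median of 0.22. The 7 theca markers summed to 1797 to 2472 CPM in WT and 2746 to 5093 CPM in ERβKO ovaries, and 5 of the 6 tested had log2 fold changes above 0, with a median of 0.16. Aldh1a1 is itself part of this sum.

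The oxysterol receptor Nr1h2, or LXRβ, is named because its CPM groups did not overlap, which held for 7.96% of all genes. Its CPM was 53.3, 45.8, 50.4, 54.0 and 53.0 in WT and 55.7, 56.5, 57.9 and 58.0 in ERβKO ovaries. The two-sided exact permutation test gave p = 0.0159, the value that any gene without overlap gets. The log2 fold change was 0.15 (standard error 0.064, 95% interval 0.012 to 0.29), below the size asked of a DEG, with a Benjamini-Hochberg adjusted p of 0.221 in edgeR. For Nr1h3, or LXRα, at 3.64 ± 0.982 in WT against 3.50 ± 1.23 FPKM in ERβKO ovaries (SD, n = 5 WT and 4 ERβKO), it was -0.12 (95% interval -0.69 to 0.45). Nr1h4, the bile acid receptor, ran from 1.09 to 4.80 FPKM in WT and from 1.27 to 3.79 FPKM in ERβKO ovaries, with a log2 fold change of -0.66 (-1.64 to 0.33). The xenobiotic receptor Nr1i2 was at 1.10 ± 0.315 and 1.53 ± 0.369 FPKM, with a log2 fold change of 0.45 (-0.047 to 0.94). Of 12 LXR target genes, 10 were tested and none was called by edgeR. At an unadjusted p under 0.05, 3 were higher, the lipid synthesis genes Srebf1, Scd1 and Fasn, and 1 lower, Lpcat3, against 19.8% of all genes in either direction. DESeq2 called 2, Fasn and Lpcat3, and edgeR without WT replicate 2 called Lpcat3. Scd1 (418, 197, 108 and 41.1 FPKM in ERβKO replicates 1 to 4) and Fasn (57.9, 32.8, 26.1 and 19.4 FPKM) were highest in ERβKO replicate 1 and lowest of the ERβKO group in replicate 4, as were the adipocyte marker sums of 1773, 636, 874 and 308 CPM. In WT replicates 1 to 5 the adipocyte sums were 753, 350, 491, 1001 and 1192 CPM. There Scd1 was at 77.55, 62.2, 46.1, 107 and 74.6 FPKM and Fasn at 19.4, 21.4, 13.6, 19.05 and 22.6 FPKM. ERβKO replicates 2 and 3 had sums within the WT range, with both genes above every WT ovary. In these replicates the adipocyte markers Fabp4 (183 and 211 FPKM) and Adipoq (47.8 and 56.9 FPKM) were above every WT ovary too. Their highest WT values were 122 and 38.9 FPKM. The part of fat tissue in these levels was not tested. The median log2 fold change was 0.06.

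The 3 PPARs, which bind fatty acids, all had log2 fold changes above 0 and none was a DEG. Pparg, the receptor of fat cells that is also known from granulosa cells, was at 12.2, 11.7, 7.94, 12.4 and 13.9 FPKM in WT and at 16.1, 12.0, 11.6 and 10.6 FPKM in ERβKO ovaries. ERβKO replicate 1 was the highest, and it also had the highest sum of adipocyte markers, 1773 CPM. The log2 fold change of Pparg was 0.08 (95% interval -0.29 to 0.44), and without ERβKO replicate 1 it was -0.046. Ppard was at 3.75 to 4.12 FPKM in WT and 4.15 to 5.01 FPKM in ERβKO ovaries. These ranges did not overlap on the FPKM scale but did on the CPM scale, and the log2 fold change was 0.17 (-0.033 to 0.37). Ppara was lower in level, at 1.45 ± 0.356 FPKM in WT, and had a log2 fold change of 0.24 (-0.17 to 0.64). Of the 13 PPAR target genes none was called by edgeR, and DESeq2 called 1, the fatty acid transporter Cd36. At an unadjusted p under 0.05, 7 were higher and 1, Cpt1a, lower, against 19.8% of all genes in either direction. The median log2 fold change was 0.21. Fabp4 and Adipoq, which are on this list, are also adipocyte markers. Of the 8 adipocyte markers 7 had log2 fold changes above 0, with a median of 1.28 and none called.

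The NR4A receptors are orphan receptors that are induced within minutes to hours by stimuli such as luteinizing hormone. Nr4a1 was at 19.1, 9.03, 7.58, 22.1 and 22.1 FPKM in WT and at 11.5, 10.7, 35.7 and 5.18 FPKM in ERβKO ovaries. Both the highest and the lowest of the 9 values came from ERβKO ovaries, replicates 3 and 4. Nr4a1 thus had a log2 fold change of -0.02, with a 95% interval from -1.17 to 1.12 that spans more than a doubling in either direction. Without ERβKO replicate 3 it was -0.79. Nr4a2 was at 2.27 ± 0.393 in WT against 1.95 ± 0.462 FPKM in ERβKO ovaries (SD, n = 5 WT and 4 ERβKO), and Nr4a3 stayed below 1 FPKM in every ovary. Their log2 fold changes were -0.25 (95% interval -0.60 to 0.11) and 0.70 (-0.098 to 1.502). Of the 17 other immediate early genes listed, none was called by edgeR and 1, Fosl2, by DESeq2. Fosl2 and Dusp1, both lower, were the 2 that edgeR called without WT replicate 2. At an unadjusted p under 0.05, Klf2 was higher and Fosb, Fosl2, Dusp1 and Zfp36 were lower, against 19.8% of all genes in either direction. The median log2 fold change was -0.13. ERβKO replicate 3, the highest for Nr4a1, was the highest of the 9 ovaries for 2 of these 17 genes.

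Of the NR2 orphan receptors and HNF4 receptors, 7 of 9 were tested and none was a DEG. Nr2f2, or COUP-TFII, was at 25.6, 27.1, 34.4, 29.1 and 26.0 FPKM in WT and at 30.9, 26.1, 28.1 and 35.9 FPKM in ERβKO ovaries. Its groups overlapped, and the log2 fold change was 0.05 (95% interval -0.13 to 0.24). Nr2f1, or COUP-TFI, was far lower at 1.99 ± 0.383 FPKM in WT and had a log2 fold change of 0.05 (-0.43 to 0.52). The CPM of Nr2c1, or TR2, was 32.3, 34.7, 34.8, 37.6 and 35.0 in WT and 31.7, 32.0, 28.6 and 31.1 in ERβKO ovaries. Its ERβKO values all lay below the WT values (exact permutation test, two-sided, p = 0.0159, the value that any gene without overlap gets). Its log2 fold change of -0.18 (95% interval -0.33 to -0.024) had a Benjamini-Hochberg adjusted p of 0.196 in edgeR, and the FPKM values of Nr2c1 overlapped. Its paralog Nr2c2, or TR4, had a log2 fold change of -0.04 (-0.17 to 0.092). Hnf4a and Nr2e1, at 0.251 and 0.503 FPKM in WT, had log2 fold changes of 0.60 (-0.0082 to 1.22) and -0.12 (-0.98 to 0.75).

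Nr2f6 gave different answers in the counts and in the FPKM of the same libraries. Its counts were 235, 288, 240, 267 and 219 in WT and 276, 328, 257 and 196 in ERβKO ovaries, and the log2 fold change was -0.05 (95% interval -0.30 to 0.21). The deposited FPKM were 4.68, 4.63, 4.08, 4.78 and 4.05 in WT and 7.69, 8.60, 6.73 and 6.75 in ERβKO ovaries, with no overlap. On the log2(FPKM + 1) scale the difference was 0.63, with an adjusted p of 0.0168 in limma with Benjamini-Hochberg adjustment. Nr2f6 (ENSMUSG00000002393, chromosome 8 of GRCm38 from 71374123 to 71381960, minus strand) shares 54.4% of its annotated exon length with Ocel1 on the plus strand, the largest such share among the tested receptors. Ocel1 itself was at 3.65 to 4.13 FPKM in WT and 3.47 to 4.05 FPKM in ERβKO ovaries. Which transcripts of the overlapping pair each tool counted was not tested, so no direction is given for Nr2f6.

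**Figure D4:**
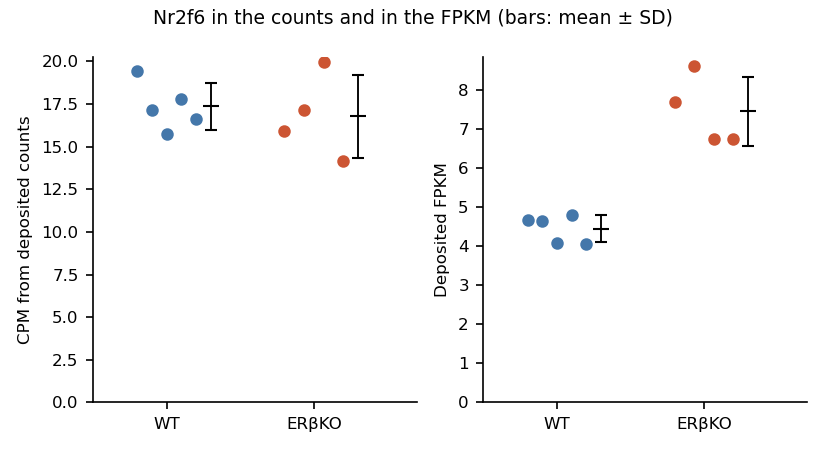
Nr2f6 in each of the 5 WT and 4 ERβKO ovaries, as CPM computed from the deposited counts (left) and as deposited FPKM (right), with mean ± SD beside each group. The CPM overlap between the genotypes, whereas the FPKM lie at 4.05 to 4.78 in WT and 6.73 to 8.60 in ERβKO ovaries.

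The estrogen related receptors, named for their likeness to estrogen receptors and not for binding estrogen, were low. Esrra was at 3.78 ± 0.339 in WT against 3.82 ± 0.476 FPKM in ERβKO ovaries (SD, n = 5 WT and 4 ERβKO), with a log2 fold change of 0.07 (95% interval -0.19 to 0.33). Esrrg and Esrrb were under 1 FPKM on average, with log2 fold changes of 0.05 (-0.54 to 0.64) and 0.47 (-0.22 to 1.16). Nr6a1, a receptor known from germ cells, was at 2.40 ± 0.341 and 2.63 ± 0.447 FPKM (SD, n = 5 WT and 4 ERβKO), and its log2 fold change was 0.10 (-0.17 to 0.38). Of 15 coregulators, the proteins through which the receptors act, 12 had log2 fold changes above 0 and 3 below, with a median of 0.06. The 1 DEG with edgeR, also the 1 with DESeq2, fell. This was Ncoa7, a coactivator that binds estrogen receptors, at 14.2 ± 2.39 in WT against 7.78 ± 1.04 FPKM in ERβKO ovaries (SD, n = 5 WT and 4 ERβKO). Its log2 fold change was -0.87 (standard error 0.14) and its edgeR adjusted p 0.0164.

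**Figure D5:**
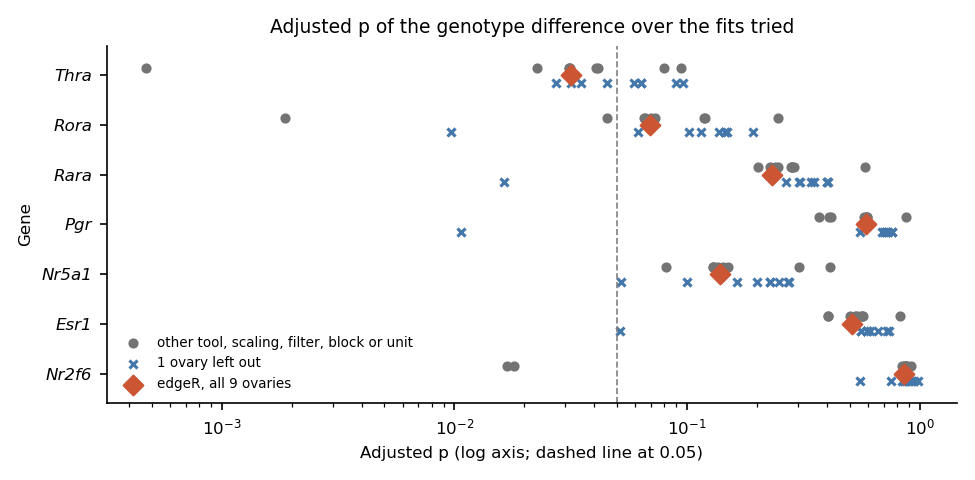
Adjusted p of the genotype difference of 7 receptors (log axis), with all 9 ovaries in edgeR (diamonds), with 1 ovary left out (crosses) and with another tool, scaling, filter, block or unit (circles); the dashed line marks 0.05. Thra lies on both sides of the line, Rara and Pgr pass it only without WT replicate 2, and Nr2f6 passes it only in the FPKM.

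Promoters were searched because many receptor genes are themselves targets of nuclear receptors. RefSeq promoters (GRCm38.p6, 250 bases before to 50 after the start) were at hand for 42 of the 46 genes and not for Hnf4g, Nr3c1, Nr5a1 and Thra. Both strands were searched. The full estrogen response element, GGTCA and TGACC with 3 bases of any kind between them, was in none of the 42 and in 0.074% of the 27025 genes of the promoter table. The core site AGGTCA, which the ROR and NR5A elements can contain, was in 11 of the 42 (26.2%) against 18.1% of all genes. The NR5A element TCAAGGNCA was in 1 of the 42, Rara, against 1.86% of all genes, and the ROR element, AGGTCA right after AANT, in none against 0.259%. The E-box CACGTG, bound by the clock activators, was in 5 of the 42 (11.9%) against 8.09% of all genes, among them Esr2 and Rara. Capitals mark the matched letters in the stretches that follow.
Esr2, E-box, -72 to -67 from the start, window chr12:76177210-76177509, minus strand: tttgtggtCACGTGggcttctc
Rara, NR5A element, -233 to -225 from one of its starts, window chr11:98964622-98964921, plus strand, match on the other strand: ggggggcgTCAAGGACAaggggggt
These matches are letters in a window and say nothing of binding in the ovary.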

How the data were processed

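Whole-ovary RNA of 5 WT and 4 ERβKO mice was sequenced by the authors as stranded poly-A libraries with read pairs of 150 bp, trimmed, and mapped with STAR to GRCm38 (mm10). The deposited counts, which the authors made with featureCounts, are raw fragment counts for each gene, and the strand setting is not given in the sources used here. The deposited FPKM, TPM and coverage values are the authors' StringTie estimates per gene; coverage was read but not used.

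Genotypes were compared with edgeR 4.0.16 (quasi-likelihood test, TMM, filterByExpr, Benjamini-Hochberg over 16722 genes) in R 4.3.3, with DESeq2 1.42.0 on counts and limma 3.58.1 on FPKM as alternatives. DESeq2 and the thresholds for DEGs are those of the study's methods. The other alternatives were other scalings and filters, the replicate number as a block, and each ovary left out. A further one took the libraries with a sample number below 200, which leaves out WT replicates 4 and 5. Standard errors and 95% intervals come from the F statistic and cover the spread between ovaries. CPM for single ovaries are TMM-scaled, while marker sums use library totals. The tests were tried on simulated counts.

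The members, the gene lists and the rule for named genes were chosen with earlier results of these data known. Named are the 10 most abundant members in WT, Esr1, Esr2, Nr5a1, Nr5a2, Pgr, members called, not overlapping or with an unadjusted p under 0.05, their subfamilies, and called genes of the pathway lists. Results of 1 pathway gene are not reported here. Replicate numbers did not pair the ovaries. Exon overlaps and coding sequences are from GENCODE M21, whose coordinates match the deposited ones for 37 of 46 members.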

Additional observations from a re-analysis of the deposited data

Results flagged for a closer look

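Of 85 groups of ovaries in which a receptor could be examined for a value far from the rest (gap to the nearest ovary over the range of the group, against Dixon's 95% critical value), 7 were marked, where chance marks about 1 in 20, or 4.25. Nr1d1 was at 17.5 FPKM in ERβKO replicate 3, with the other 3 ERβKO ovaries between 27.5 and 27.8 FPKM, and Nr1d2 was at 20.2 FPKM in the same ovary, with the others between 24.5 and 25.2 FPKM. Nr3c1 was at 11.5 FPKM (11.55 before rounding) in ERβKO replicate 1, against 9.31 to 9.44 FPKM, and Nr2e1 at 1.16 FPKM in that ovary, against 0.209 to 0.340 FPKM. In WT replicate 4, Nr2c1 was at 7.36 FPKM, against 6.48 to 6.68 FPKM, and Ppard at 3.75 FPKM, against 4.04 to 4.12 FPKM. Pgr was at 7.02 FPKM in WT replicate 2, against 1.03 to 2.42 FPKM in the other WT ovaries.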

How the results depend on the processing

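Thra was the 1 receptor called in edgeR with DESeq2 size factors, with upper-quartile factors, with at least 10 counts in every library, and without WT replicate 3, WT replicate 4 or ERβKO replicate 1. The number of receptors called, by all criteria or by the adjusted p alone, was 2 with DESeq2 and without a filter (Thra and Rora), 2 with limma on log2(FPKM + 1) and on log2(FPKM + 0.1) (Thra and Nr2f6), and 0 with the replicate block and with the libraries numbered below 200. With 1 ovary left out it ran from 0 to 4, the 4 being Thra, Rara, Rora and Pgr without WT replicate 2, where 5.56% of all genes were called. Nr2f6 changed sign under limma, with log2 values of 0.63 (adjusted p = 0.0168) and 0.73 (adjusted p = 0.0180) for a pseudocount of 1 and 0.1; the cause was not tested. Over all genes 287 were called in the main edgeR fit, 803 with DESeq2, 155 with the replicate block, 51 with the libraries numbered below 200, 191 with limma on log2(FPKM + 1), and 60 to 919 with 1 ovary left out; the count rose over 1.5 times without WT replicate 2 and dropped as far without WT replicates 1, 4 or 5 or ERβKO replicates 2, 3 or 4. Of the pathway genes 5 were called, 20 with DESeq2, 10 without a filter, 0 with the libraries numbered below 200, and 0 to 18 with 1 ovary left out (0 without ERβKO replicate 2, 18 without WT replicate 2, 3 without WT replicate 1 and 1 without ERβKO replicate 4). The deviations of WT and ERβKO ovaries of the same number correlated at -0.0427 to 0.13, and no ovary matched its own number best, so the block was not taken as a pairing. Of 735 log2 fold changes of single receptors under the alternatives, 721 kept their side of the threshold, 5 newly passed it, 7 (all of Thra) no longer did, and 2 (Nr2f6) passed it with the opposite sign. A further 38 changed sign without passing it in either fit, and the sign differed at least once for 14 receptors, Nr2f6 included. The 13 receptors above 10 FPKM compare with 34 above 1 FPKM. The 5 untested receptors had too few counts for a test.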
